A study of Drosophila melanogaster with 9 samples.

Results

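The genes described here encode cytosolic heat shock chaperones of Drosophila and the factor that switches them on: the small heat shock proteins Hsp26 and Hsp27, the Hsp70-type proteins Hsp68, Hsc70-1, Hsc70-2 and Hsc70-4, the Hsp110-type protein Hsc70Cb, the DnaJ proteins DnaJ-1 and Droj2, and the heat shock transcription factor Hsf. They were chosen by name from the probe table of the array, and where a gene had several probe sets the one with the highest mean over all arrays stood for it. Of the 10 genes, 9 were measured, by 11 probe sets, among 11982 genes tested. Hsc70Cb was not analysed here, as the probe table used pairs none of its entries with that name.

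Small heat shock proteins bind unfolding proteins without using ATP and hold them in a state that can be refolded. Hsp70-type chaperones then refold the client in cycles of ATP hydrolysis, which DnaJ proteins start and exchange factors such as the Hsp110 type end. Hsf is present before stress and acts after it forms trimers, so its transcript level is not a measure of its activity. In imaginal discs, heat shock genes are known as responders to heat, to protein damage and, for the small heat shock genes, to ecdysone.

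RNA came from wing imaginal discs, the epithelial sacs of the larva that form the adult wing, of w1118 background larvae about 8 days old. All groups came from animals in which en-gal4, a driver active in the posterior compartment, expressed p35 (a viral caspase inhibitor), a dsRNA form of asp (the gene of the spindle pole protein Abnormal spindle) and RFP, and which also carried an MMP1-GFP reporter of metalloproteinase expression. After trypsin dissociation, sorting gave anterior cells with neither fluorescent protein, posterior cells with RFP alone and delaminating cells with both, at 3 biological replicates each and 1 array per replicate. Anterior cells thus came from the same animals, with the same transgenes, but from outside the compartment where the driver is active. In posterior against anterior cells, compartment and transgene expression cannot be told apart. In delaminating against anterior cells, reporter state cannot be told apart from them either.

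As checks of the sort, en, the posterior selector gene, had mean log2 signals of 7.16, 10.54 and 10.43 on anterior, posterior and delaminating arrays, and ci, the anterior Hedgehog effector, had 9.97, 8.33 and 7.90 (n = 3 arrays per group). A list of 4 anterior genes that held ci was mixed. In posterior against anterior cells their log2 differences ran from -1.64 to 2.53 (1 lower and 1 higher at a limma adjusted p under 0.05). In delaminating against anterior cells they ran from -2.07 to 1.14. Each time 2 of the 4 lay above 0. The targeted gene asp and the reporter's gene Mmp1 were not analysed here. A pair of arrays stood apart. The correlation of anterior replicate 3 with each of the other 8 arrays was between 0.889 and 0.915 over all genes, against 0.943 to 0.987 among those 8. Delaminating replicate 2 held the highest summed signal of 12 hemocyte (blood cell) markers in its group, 22411 on the linear scale against 9624 and 8060, with 11 of the 12 markers highest there. Markers of muscle precursors, the cells under the notum part of the disc, differed between the groups, with summed signals of 12770 to 16074 on anterior, 2803 to 3259 on posterior and 1372 to 2669 on delaminating arrays for 7 genes, and their part in the comparisons with anterior cells was not tested. Results are therefore also given without these arrays where they touch them. In sorted populations, fewer cells of a type and less RNA per cell cannot be told apart.

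Of the 9 chaperone genes, 0 passed the test in any comparison between the populations. In delaminating against posterior cells, 0 of 9 were called by limma at a Benjamini-Hochberg adjusted p under 0.05 over all genes, where 0.801% of all genes were called, and 0 of 9 had an unadjusted p under 0.05, against 9.98% of all genes. In posterior against anterior cells the counts were again 0 of 9 and 0 of 9, beside 0.576% and 9.6% of all genes. In delaminating against anterior cells they were 0 of 9 and 0 of 9, beside 3.82% and 16.6%. All 3 counts of calls stayed at 0 without anterior replicate 3, without delaminating replicate 2 and without both. With 9 genes, background shares of this size would give few or no calls, so the widths of the intervals below say more than the counts.

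The median log2 difference of the 9 genes was -0.057 in delaminating against posterior cells, with 3 of 9 above 0, where the median of all genes was -0.0031. It was 0.056 in posterior against anterior cells, with 6 of 9 above 0, against 0.085 for all genes. It was 0.0055 in delaminating against anterior cells, with 5 of 9 above 0, against 0.054 for all genes. Centring each array on its median moved the median of all genes by -0.11 in posterior against anterior cells, and left 4 of the 9 above 0 there and 2 of 9 in delaminating against anterior cells. In delaminating against posterior cells 3 of 9 lay above 0 as deposited, after a second quantile normalization and after centring, with medians of -0.057, -0.067 and -0.045. Regardless of sign, the median size of their differences was 0.092, 0.056 and 0.095 in the 3 comparisons in that order, against 0.18, 0.24 and 0.25 for all genes.

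**Figure D1:**
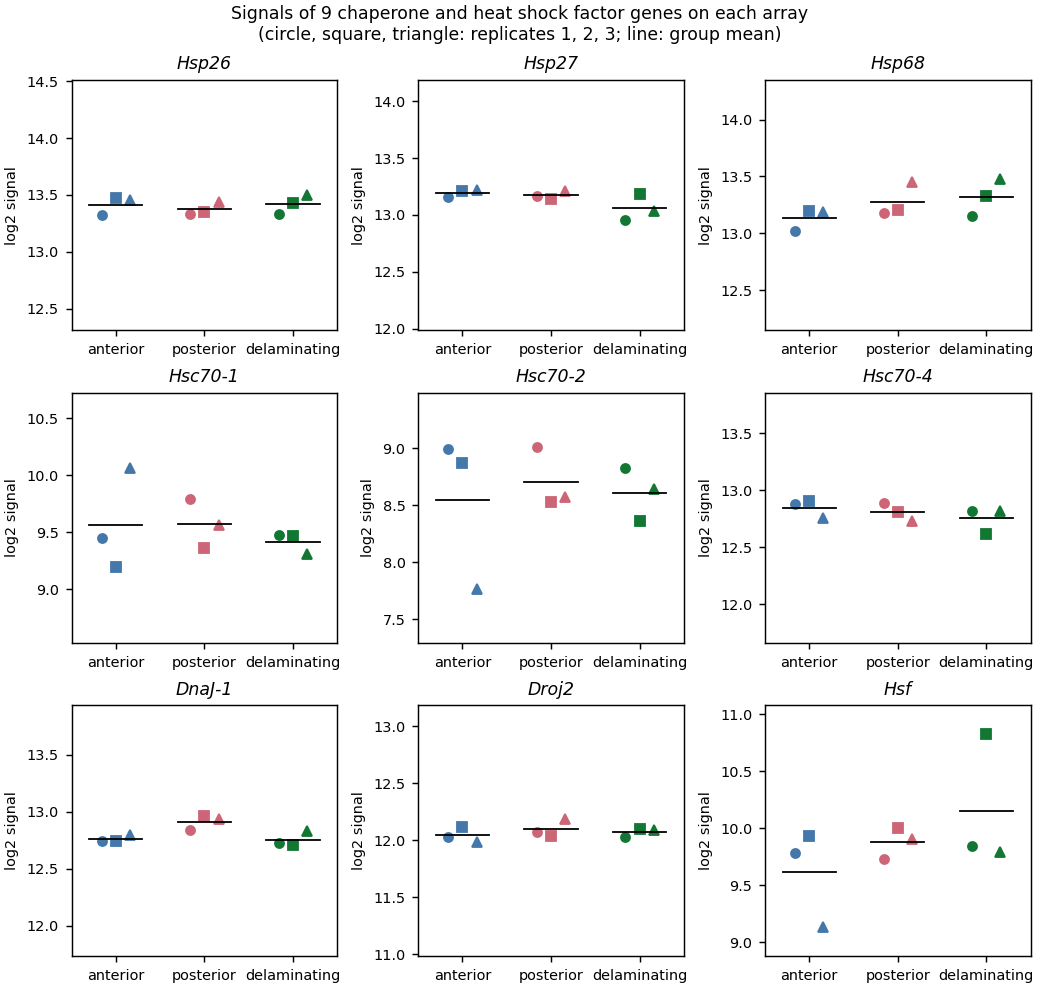
Log2 signal (vertical axis, with a span of the same size in every panel) of 9 genes in anterior, posterior and delaminating cells, 1 point per array and a line at each group mean. The groups overlap in every panel except that of DnaJ-1, whose posterior arrays, 12.84 to 12.96, lie above all others, and single arrays stand off for Hsc70-1, Hsc70-2 and Hsf.

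The small heat shock genes Hsp26 and Hsp27 lie near each other on chromosome arm 3L. The RefSeq annotation has 3 genes between them, which are Hsp67Ba, an antisense RNA gene and Hsp23. Hsp26 had log2 signals of 13.32, 13.47 and 13.45 in anterior replicates 1 to 3, 13.33, 13.35 and 13.44 in posterior cells, and 13.33, 13.43 and 13.50 in delaminating cells. All 9 values fell within 0.17 of each other, and the groups overlapped fully. The delaminating mean exceeded the posterior mean by 0.045 ± 0.15 (SE), with a 95% interval from -0.28 to 0.37, which corresponds to folds between 0.824 and 1.29. The interval against anterior cells was -0.32 to 0.33 for delaminating and -0.36 to 0.28 for posterior cells.

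Hsp27 gave 13.16, 13.21 and 13.22 in anterior cells, 13.17, 13.14 and 13.21 in posterior cells, and 12.95, 13.19 and 13.04 in delaminating cells. A pair of delaminating arrays lay below every other array, while delaminating replicate 2 lay among them. The difference of delaminating against posterior cells was -0.11 ± 0.15 (SE, 95% interval -0.44 to 0.21, limma adjusted p = 0.924). Against anterior cells it was -0.14 (interval -0.46 to 0.19), so that a fall of the array signal to less than 0.727 of the anterior signal lay outside the interval.

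Hsp68 encodes a heat-inducible relative of the major heat shock protein Hsp70. Its signals were 13.02, 13.20 and 13.19 in anterior cells, 13.18, 13.20 and 13.45 in posterior cells, and 13.16, 13.32 and 13.48 in delaminating cells. The group means were 13.14, 13.28 and 13.32 in that order, but the ranges overlapped and no step between neighbouring means passed the test. The difference of delaminating against anterior cells was 0.18 ± 0.16 (SE, 95% interval -0.18 to 0.55, adjusted p = 0.606), and that of delaminating against posterior cells 0.042 (interval -0.32 to 0.41).

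The signals of Hsp26, Hsp27 and Hsp68 lay near the top of the scale in every population. Hsp26 was between 0.42 and 0.69 below the highest signal of the same array, Hsp68 between 0.44 and 0.98, and Hsp27 between 0.74 and 1.002. Whether their probes could still register a rise at this brightness was not tested. Of the 9 genes, 6 had a mean log2 signal over 12, as had 178 of all genes, a limit chosen after the data had been seen. Among those 178 genes 0, 1 and 5 were called in the 3 comparisons in the order above. The median size of their differences was 0.095, 0.071 and 0.11, against 0.051, 0.048 and 0.061 for the 6 chaperone genes. Bright genes in general thus also had smaller differences than the whole set.

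The cognate genes Hsc70-1, Hsc70-2 and Hsc70-4 encode Hsp70-type proteins made without heat. Hsc70-4 is the main such chaperone of the cytosol and also strips clathrin from coated vesicles. It had signals of 12.88, 12.90 and 12.76 in anterior cells, 12.89, 12.81 and 12.73 in posterior cells and 12.82, 12.61 and 12.82 in delaminating cells. The means were 12.85, 12.81 and 12.75, each step smaller than the SD within every group. The delaminating mean was below the posterior one by less than the spread (log2 difference -0.057 ± 0.15 SE, interval -0.39 to 0.28) and the difference from anterior cells was -0.095 (interval -0.43 to 0.24). Its probe set is of a type, marked s_at, that can match several transcripts, as are those of DnaJ-1 and Droj2.

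Hsc70-1 had signals of 9.45, 9.19 and 10.06 in anterior cells, 9.79, 9.36 and 9.56 in posterior cells and 9.48, 9.47 and 9.31 in delaminating cells. The anterior values enclosed all others, with replicate 3 the highest of the 9 arrays. Posterior and anterior means differed by 0.0053 ± 0.23 (SE), and by 0.25 without anterior replicate 3 (adjusted p = 0.841). The other probe sets of the gene were dimmer, at 6.57 to 7.57 and 6.08 to 6.71, the latter close to the lower quartiles of the arrays (6.05 to 6.36). They disagreed in sign in posterior against anterior cells, at -0.20 and 0.19.

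Hsc70-2 gave 8.997, 8.87 and 7.77 in anterior cells, 9.01, 8.53 and 8.57 in posterior cells, and 8.83, 8.37 and 8.64 in delaminating cells. Anterior replicate 3 was the lowest of all, at more than 1 log2 unit under the other anterior arrays. The posterior minus anterior difference was 0.16 with all arrays and -0.23 without that one (adjusted p = 0.839 and 0.904). The delaminating minus anterior difference likewise went from 0.064 to -0.33 (adjusted p = 0.941 and 0.456). Among arrays left out singly, it alone reversed the sign in posterior against anterior cells. In delaminating against anterior cells the sign also turned without delaminating replicate 1, at -0.044. With all arrays it turned there after a second quantile normalization (-0.052) and after centring on array medians (-0.032). Without anterior replicate 3 the SE was 0.20, against 0.31 with all arrays.

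DnaJ-1 and Droj2 encode DnaJ proteins, the partners that deliver clients to Hsp70-type chaperones and start their ATP hydrolysis, and DnaJ-1 is itself induced by heat. DnaJ-1 had signals of 12.74, 12.74 and 12.79 in anterior cells, 12.84, 12.96 and 12.94 in posterior cells, and 12.73, 12.71 and 12.83 in delaminating cells. All posterior values lay above all values of both other groups, though by only 0.0098 above the highest delaminating one. This made DnaJ-1 the 1 gene of 9 with separate groups in delaminating against posterior cells, where 22.3% of all genes were separate. It was also the 1 of 9 in posterior against anterior cells (18.4% of all genes). In delaminating against anterior cells 0 of 9 were separate, beside 21.2% of all genes. These shares are near or below the background, so the separation of DnaJ-1 is not a result about the chaperone genes.

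The posterior mean of DnaJ-1 exceeded the anterior mean by 0.16 ± 0.14 (SE, 95% interval -0.16 to 0.47, adjusted p = 0.651), and the delaminating mean lay below the posterior one by the same amount (-0.16 ± 0.14 SE, adjusted p = 0.836). Both comparisons share the posterior arrays. Delaminating and anterior means differed by -0.0026. The spread of DnaJ-1 within groups was 0.056 (SD), and 0.351% of genes had a smaller one, whereas limma's moderated SE draws on the spread of all genes. With an intensity trend and robust variances together the SE was 0.069 and the adjusted p values were 0.438 against delaminating and 0.491 against anterior cells.

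Droj2 showed 12.03, 12.12 and 11.98 in anterior cells, 12.08, 12.04 and 12.18 in posterior cells, and 12.03, 12.10 and 12.09 in delaminating cells. Its 9 values spanned 0.20 and overlapped in all groups. The differences were -0.030 for delaminating minus posterior, 0.056 for posterior minus anterior and 0.026 for delaminating minus anterior cells, each with an SE of 0.14. The latter pair turned negative when the arrays were centred on their medians, at -0.052 and -0.070.

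**Figure D2:**
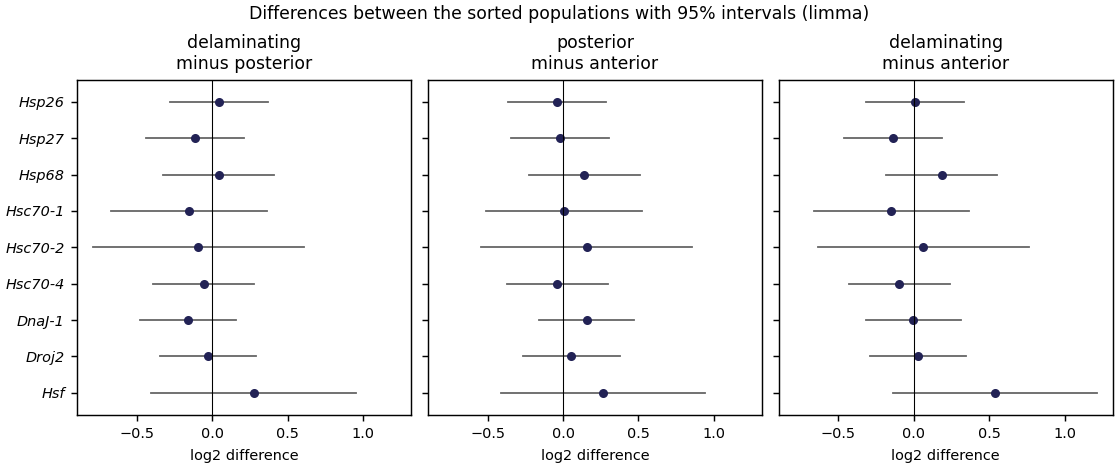
Log2 differences between populations (horizontal axis) of the 9 genes, with points for the estimates and bars for limma's 95% intervals. Every interval includes 0, and the interval of Hsf in delaminating minus anterior cells, up to 1.22, is the one that reaches past 1.

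Hsf, on chromosome arm 2R, had the widest gap between group means of the 9 genes. Its signals were 9.78, 9.93 and 9.13 in anterior cells, 9.73, 9.9996 and 9.91 in posterior cells, and 9.84, 10.83 and 9.79 in delaminating cells. Delaminating replicate 2 was far above its group and anterior replicate 3 far below its own, while the other 7 arrays lay between 9.73 and 9.9996. The delaminating mean was 0.54 ± 0.30 (SE) above the anterior mean, with a 95% interval from -0.14 to 1.22 (limma adjusted p = 0.420). The difference was 0.30 without anterior replicate 3, 0.20 without delaminating replicate 2 and -0.041 ± 0.14 (SE) without both. In delaminating against posterior cells it was 0.27 with all arrays (adjusted p = 0.900) and -0.063 without delaminating replicate 2. In posterior against anterior cells it was 0.26 with all arrays and 0.022 without anterior replicate 3.

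The array with the highest Hsf signal was also the one with the most hemocyte marker signal, whose summed values ran from 15286 to 20326 on anterior, 6316 to 8982 on posterior and 8060 to 22411 on delaminating arrays. None of the 12 markers lay below the lower quartile on every array. The part of hemocyte RNA in the Hsf signal was not tested.

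The 5 genes whose centred profile over the 9 arrays was closest to that of Hsf, by root mean square difference, were sktl (0.068), Pngl (0.097), MSBP (0.10), eEF1delta (0.11) and Crk (0.11), where the median over genes was 0.48. sktl, which encodes a phosphatidylinositol phosphate kinase, ran from 8.73 in anterior replicate 3 to 10.51 in delaminating replicate 2, with the other arrays between 9.48 and 9.75. All 5 were lowest in anterior replicate 3 and highest in delaminating replicate 2. Of all genes, 1035 (8.64%) had both extremes in those arrays, so the likeness rests on the arrays that stood apart.

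**Figure D3:**
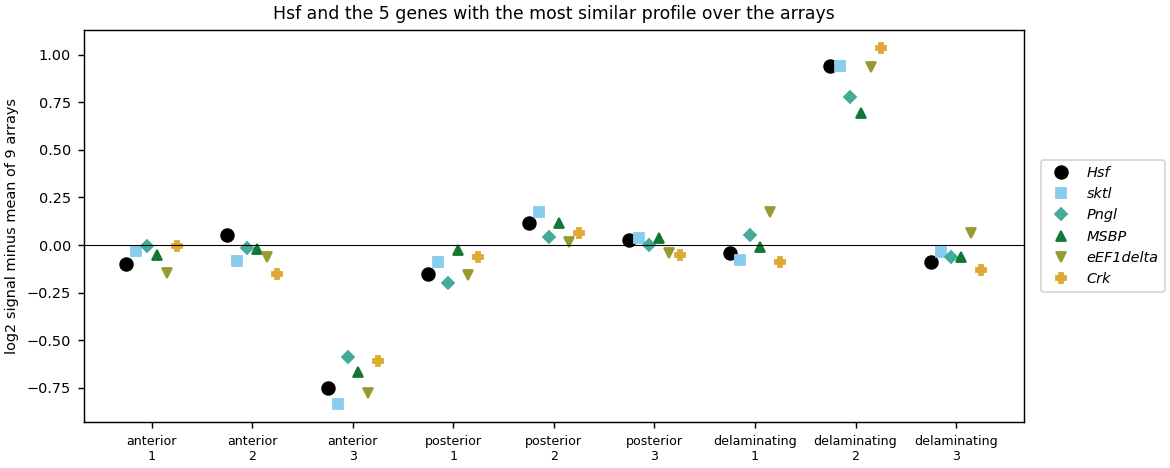
Log2 signal minus its mean over the 9 arrays (vertical axis) for Hsf and the 5 genes nearest to it, by array. The 6 genes share a low point in anterior replicate 3 and a high point in delaminating replicate 2, and lie close to 0 elsewhere.

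The genes were compared by how they varied among the arrays of a group. Spread within groups was small for 6 of them, from 0.056 (DnaJ-1) to 0.14 (Hsp68), against a median of 0.29 over all genes and 0.11 over the 178 bright ones. It was 0.29 for Hsc70-1, 0.42 for Hsf and 0.44 for Hsc70-2 (SD, n = 3 arrays per group, pooled over the 3 groups). Of the 9 genes, 3 lay farthest from their group mean in delaminating replicate 2, 2 in anterior replicate 3, 2 in posterior replicate 3, and 1 each in anterior replicate 1 and delaminating replicate 3.

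Hsp26 and Hsp68 deviated from their group means to the same side on 9 of 9 arrays, a pair picked out after the values were seen among 36 pairs. Replicate 1 was the lowest of its group for both genes in all 3 populations. Their deviations were -0.092 and -0.12 in anterior replicate 1, -0.042 and -0.098 in posterior replicate 1 and -0.086 and -0.16 in delaminating replicate 1. Of all other genes, 0.109% shared the side of Hsp26 on every array. Hsc70-2 and Hsc70-4 also shared their side on 9 arrays, as 3.11% of all other genes did with Hsc70-2. Deviations within a group sum to 0, so the 9 arrays are not 9 independent observations, and of the 36 pairs 20 shared their side on 4 arrays or fewer. Each pair among Hsp26, Hsp27 and Hsp68 lay on the same side on at least 8 arrays. Droj2 shared its side with Hsp26 and with Hsp68 on 8 arrays and with Hsp27 on 7. These pairs too were picked out after the values were seen. Of all other genes, 1.79% shared the side of Hsp26 on at least 8 arrays, and 2.14% that of Hsp27. On at least 7 arrays, 8.71% shared the side of Hsp27. Nothing in the labels says what arrays of the same number share.

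**Figure D4:**
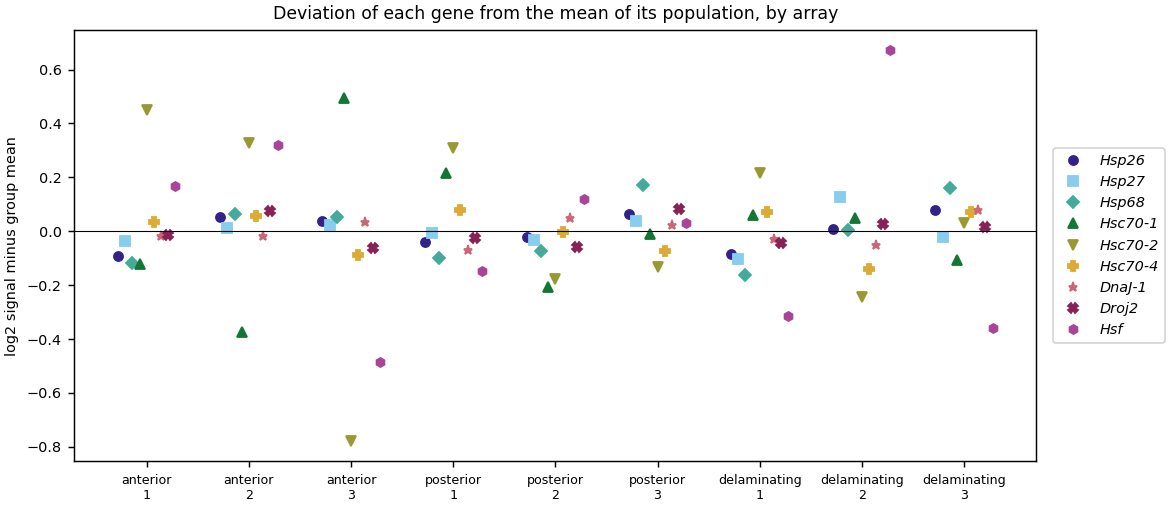
Deviation of each gene's log2 signal from the mean of its population (vertical axis), by array, with 1 symbol per gene. The farthest points are Hsc70-2 in anterior replicate 3 (-0.78) and Hsf in delaminating replicate 2 (0.67), Hsc70-1, Hsc70-2 and Hsf also stand off on other arrays, and the symbols of Hsp26 and Hsp68 fall on the same side of 0 on each array.

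Other genes of the heat shock and chaperone system were taken from a list of 42 genes outside the 10, of which 26 were tested. The 16 others included Hsp70Aa and its near-identical copies, for which the table held probe sets assigned to several genes, and Hsp83 (the fly Hsp90), Hsp23 and Hsp67Bc, for which no probe set was used here. limma called 0 of 26 in each comparison. At an unadjusted p under 0.05 there were 0 of 26 between delaminating and posterior cells, beside 9.98% of all genes. There were 2 of 26 (7.69%) between posterior and anterior cells, beside 9.6%, and 5 of 26 (19.2%) between delaminating and anterior cells, beside 16.6%. Without anterior replicate 3 these counts were 3, 1 and 4, and without delaminating replicate 2 they were 0, 3 and 2. The shares of all genes at an unadjusted p under 0.05 were not computed without these arrays. Calls over all genes moved too, from 96, 69 and 458 to 281, 88 and 567 without anterior replicate 3. Without delaminating replicate 2 they were 47, 70 and 316. The changed counts are therefore not read as a result about the 26 genes.

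Median log2 differences of the 26 genes were 0.046, 0.079 and 0.13 in those 3 comparisons, beside -0.0031, 0.085 and 0.054 for all genes. Of the 26, 17, 19 and 20 lay above 0. Anterior replicate 3 held the lowest anterior value for 21 of the 26 genes (80.8%), as for 59.2% of all genes. Without that array the median in posterior against anterior cells was 0.0038 with 13 above 0, and with the arrays centred on their medians it was -0.030 with 10 above 0. In delaminating against anterior cells, leaving out that array kept 18 above 0, with a median of 0.052 against 0.00056 for all genes, and leaving out delaminating replicate 2 as well left 14 above 0, with a median of 0.030 against 0.010. In delaminating against posterior cells 17 lay above 0 under each of the 3 scalings and 14 without delaminating replicate 2.

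stv encodes starvin, a BAG-domain exchange factor for Hsp70-type chaperones. It had signals of 11.61, 11.09 and 11.36 in anterior cells, 11.97, 11.83 and 11.999 in posterior cells and 11.89, 11.83 and 11.79 in delaminating cells. All 6 arrays of RFP-positive cells lay above all anterior ones. Of all genes, 18.4% had separate groups in posterior against anterior cells and 21.2% in delaminating against anterior cells. Other genes of the list, STUB1 and Csp among them, were also higher without overlap in both comparisons. The separation is therefore not particular to stv. The difference was 0.58 ± 0.17 (SE) in posterior against anterior cells (95% interval 0.20 to 0.96, unadjusted p = 0.00702 and adjusted p = 0.290 by limma) and 0.48 in delaminating against anterior cells (adjusted p = 0.184). Both use the same anterior arrays. With array weights, stv was called in both, at 0.72 and 0.64 (adjusted p = 0.0202 and 0.00944). That setting called 427 and 1974 of all 11982 genes, and its weights were 0.98, 3.13 and 0.11 for anterior replicates 1 to 3. Without both arrays that stood apart the differences were 0.58 and 0.49 (adjusted p = 0.245 and 0.207), so the call of stv depended on how the arrays were weighted.

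STUB1, the gene of the ubiquitin ligase CHIP that binds chaperones, differed by 0.71 in posterior against anterior cells (interval 0.056 to 1.36, adjusted p = 0.490) and by 0.83 in delaminating against anterior cells (interval 0.17 to 1.48, adjusted p = 0.182). Without anterior replicate 3 these were 0.42 and 0.54, and without delaminating replicate 2 as well the latter was 0.33. The lowest signal of STUB1 was 5.71, in anterior replicate 3, below that array's lower quartile of 6.36. Hsc70-3, which encodes the chaperone BiP of the endoplasmic reticulum, was 0.66 higher on average in delaminating than in anterior cells (interval 0.17 to 1.16, adjusted p = 0.157), and 0.32 higher without both arrays that stood apart, a setting added after seeing the data. Csp, the gene of a DnaJ protein of synaptic vesicles, differed by 0.59 in posterior against anterior cells (adjusted p = 0.529) and by 0.28 without anterior replicate 3. For STUB1, Hsc70-3 and Csp the array with the highest signal was delaminating replicate 2, and the one with the lowest was anterior replicate 3.

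In delaminating against posterior cells the smallest p values of the list belonged to 3 genes. CG12020 lay at 7.28, 7.58 and 7.18 in posterior cells and 6.74, 6.50 and 7.10 in delaminating cells, a difference of -0.56 (interval -1.14 to 0.015, adjusted p = 0.521). mrj, which encodes a DnaJ protein, differed by 0.62 (adjusted p = 0.649), with 8.11 in delaminating replicate 2 against 7.19 and 7.05 in the other delaminating arrays, and by 0.29 without that array. unc-45, whose product folds myosin, differed by 0.39 (adjusted p = 0.738), and by 0.26 without delaminating replicate 2. None of these differences passed the test.

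**Figure D5:**
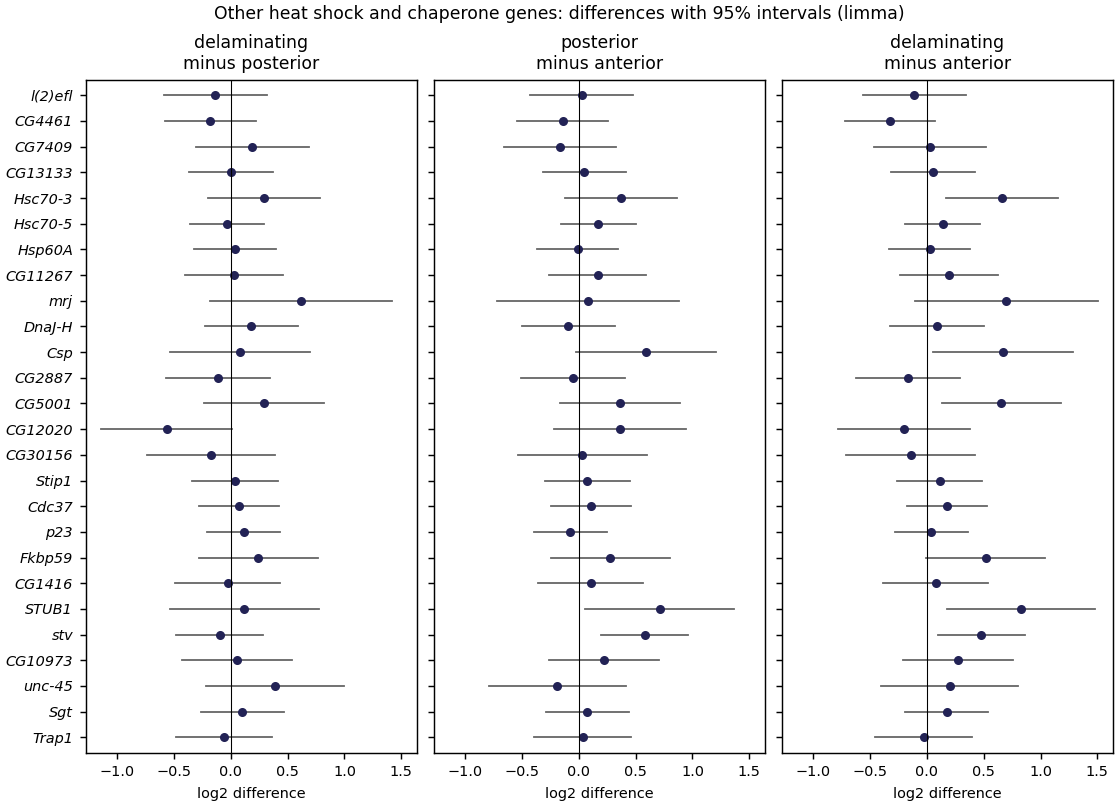
Log2 differences between populations (horizontal axis) of 26 other heat shock and chaperone genes, with limma's 95% intervals as bars. Intervals that leave out 0 belong to stv and STUB1 in posterior minus anterior cells and to 5 genes in delaminating minus anterior cells, before any adjustment for the number of genes tested.

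The 95% intervals bound the differences in array signal. Whether the probes of the brightest genes could still register a rise was not tested. In delaminating against posterior cells all 9 intervals lay within 1 log2 unit of 0, and 6 of 9 within 0.5, a fold of 1.41. In posterior against anterior cells 9 lay within 1 and 5 within 0.5. In delaminating against anterior cells 8 lay within 1 and 5 within 0.5, with Hsf reaching a fold of 2.32. The widths also depend on the model. For Hsp26, Hsp27, DnaJ-1 and Droj2 the SE was 0.14 to 0.15 as reported. It was 0.067 to 0.083 with an intensity trend and robust variances. The intervals are not adjusted for the number of genes, and an adjusted p above the threshold does not show that the levels were equal.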

How the data were processed

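The deposited values were log2 signals per probe set that the authors made with RMA, per the submitters' processing notes, from RNA amplified as cDNA and labelled with biotin, per the labels' protocols. The version of RMA is not given in the sources used here, and no detection calls were used. Of 18952 probe sets, 183 controls were left out. Those with 1 gene symbol (13647) were named through the platform's table and RefSeq gene identifiers (release 6 of the fly genome), those with several (402) or none (4720) were left out, and the brightest probe set stood for a gene. All 9 arrays entered a linear model of group means in limma 3.58.1 (R 4.3.3), with moderated variances, two-sided tests and Benjamini-Hochberg adjustment over 11982 genes at 0.05. The number of arrays limits the precision.

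The members and lists were chosen with earlier results of these data known. Named genes were all members, the called genes and the 3 smallest p values per comparison of the list of other chaperones, en, hh and ci (hh had means of 7.01, 9.11 and 9.64 in anterior, posterior and delaminating cells), and the 5 genes nearest to the member with the widest gap of group means. The fit was tested on simulated data. Figures were drawn with matplotlib 3.10.9.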

Additional observations from a re-analysis of the deposited data

How the results depend on the processing

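Over 20 alternative settings, 0 of the 9 chaperone genes were called in any of the 3 comparisons, although the number of all genes called ranged from 17 to 749, from 35 to 427 and from 180 to 1974 (96, 69 and 458 as reported). Among these settings, a log2 difference of at least 1 was only a further limit on the main fit. Its count of 0 was therefore fixed in advance. The smallest adjusted p of a member in any setting was 0.190, for Hsp27 in delaminating against anterior cells. Among 26 other chaperone genes, array weights called 1 in posterior against anterior cells (stv) and 2 in delaminating against anterior cells (stv and CG5001), against 0 in each as reported. Of all 11982 genes this setting called 427 and 1974 in those comparisons. The alternatives for the 26 genes were chosen after seeing the data.

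Of 540 member differences recomputed, 493 kept their sign and 47 changed it, all without a call. Several settings leave the estimate as it was, so that its sign could not change. They include the replicate block, the intensity trend with robust variances, and leaving out an array of the group not compared. The 493 are therefore not a measure of how stable the signs were. With array weights the changed values were -0.036 for Hsp68 and 0.015 for Hsc70-2 in delaminating against posterior cells, -0.13 for Hsc70-2 and -0.016 for Hsf in posterior against anterior cells, and -0.060 for Hsp26, 0.17 for Hsc70-1, -0.12 for Hsc70-2, 0.0058 for DnaJ-1 and -0.050 for Droj2 in delaminating against anterior cells. Leaving out both anterior 3 and delaminating 2 gave 0.031 for Hsc70-2, 0.013 for Hsc70-4 and -0.063 for Hsf in delaminating against posterior cells, -0.23 for Hsc70-2 in posterior against anterior cells, and 0.075 for Hsc70-1, -0.20 for Hsc70-2, 0.040 for DnaJ-1, -0.017 for Droj2 and -0.041 for Hsf in delaminating against anterior cells. Repeated quantile normalization gave -0.12 for Hsc70-1 and -0.00023 for Droj2 in posterior against anterior cells, and -0.052 for Hsc70-2 and -0.057 for Droj2 in delaminating against anterior cells. Centring on array medians gave -0.10 for Hsc70-1 and -0.052 for Droj2 in posterior against anterior cells, and -0.091 for Hsp26, -0.032 for Hsc70-2 and -0.070 for Droj2 in delaminating against anterior cells. The cause was not tested.

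With each array left out in turn, differences that changed sign ranged, in delaminating against posterior cells, from -0.037 to 0.13 (Hsp68), -0.20 to 0.063 (Hsc70-2), -0.094 to 0.013 (Hsc70-4), -0.060 to 0.012 (Droj2) and -0.063 to 0.45 (Hsf). In posterior against anterior cells they ranged from -0.18 to 0.25 (Hsc70-1) and -0.23 to 0.38 (Hsc70-2). In delaminating against anterior cells they ranged from -0.040 to 0.048 (Hsp26), -0.34 to 0.099 (Hsc70-1), -0.33 to 0.29 (Hsc70-2), -0.041 to 0.022 (DnaJ-1) and -0.0040 to 0.063 (Droj2). The replicate block called 0 of 9 in each comparison. In the main fit the replicate numbers were not treated as pairs, since the labels do not say what arrays of the same number share. The correlation of same-numbered deviations ran from -0.12 to 0.18 and exceeded 0.1 in 5 of 9 pairs.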
